A study of Mus musculus with 58 samples.

Results

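Ppargc1a encodes PGC-1α, a coactivator that is induced in the fasting liver and that switches on genes for glucose production. The account here follows Ppargc1a and 7 genes named with it as fasting response genes, namely Ppargc1b, Pck1, Fbp1, Slc37a4, Tat, Foxo1 and Creb3l3. These 8 genes were taken by name from the 22180 genes that the array measured through a transcript cluster with a single gene symbol, using the brightest cluster of each gene. All 8 were measured, and no filter on low values was applied to them.

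The data are 58 Affymetrix whole-transcript arrays, 29 of liver tumors and 29 of normal liver, from 39 mice. Both groups came from adult mice of a mixed FVB/NJ, C57BL/6 and 129/Sv background, and every mouse, those that gave normal liver included, received adeno-associated virus (AAV) by injection as a newborn. The labels give the disease causing mutation as insertional mutagenesis by the vector, so there is no uninjected liver among the 2 groups. They do not state the vector, its dose, the feeding state or the time of day of each animal, some titles carry the marks -/- or +/- without the name of a gene, and 1 title of a normal liver also carries the word GFP, with no note of what it marks. A pair of arrays, 1 tumor and 1 normal liver, came from each of 18 mice, and 1 mouse gave 2 tumors. Normal livers 26 and 27 carry the same animal number in their titles, with the marks +/- and -/-, and were counted as 2 mice.

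In the fasting liver, glucagon acts through cyclic AMP and protein kinase A on the transcription factor CREB, which induces Ppargc1a. PGC-1α then works with FOXO1, HNF4A and the glucocorticoid receptor on the genes of gluconeogenesis, among them Pck1 and the glucose-6-phosphatase gene G6pc. Insulin acts the other way, in part by keeping FOXO1 out of the nucleus.

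One tumor array stood apart from the rest and is named before the results because several of them rest on it. Tumor 9 correlated least with the other arrays over all clusters, with a mean r of 0.873, and the next lowest, tumor 20, had 0.911. Its 7 measured hepatocyte markers averaged 7.89 on the log2 scale, against 11.76 to 12.74 in the other tumors and 12.19 to 12.83 in normal livers. Alb, the albumin gene, read 10.47 in tumor 9, against 13.29 to 13.83 in the other tumors and 13.56 to 13.88 in normal livers. Markers of lymphocytes were high in it: the T and NK cell list averaged 9.83, against 6.28 to 7.51 in the other tumors and 6.46 to 7.66 in normal livers, and the B cell list averaged 12.17, against 6.92 to 10.32 in the other tumors and 7.31 to 9.07 in normal livers. Results are therefore given with and without this tumor. The arrays are of bulk tissue, in which fewer hepatocytes and less RNA per hepatocyte cannot be told apart.

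Ppargc1a was the member with the largest difference between tissues. It read 6.76 at the lowest, 10.95 at the median and 11.63 at the highest in tumors, against 7.23, 8.46 and 11.31 in normal livers, all as log2 values of 1 transcript cluster. The bulk of the tumors lay above the bulk of the normal livers: 25 tumors were above 9.25, the third-highest normal value, and 6 were above the highest. Only 2 normal livers, 26 and 27, whose titles share an animal number, reached the range of most tumors, with 10.75 and 11.31. The means were 10.62 ± 1.14 in tumors and 8.60 ± 0.83 in normal livers (SD, n = 29 each). In the limma fit with the animal as a random block, Ppargc1a was 2.04 higher in tumors on the log2 scale (SE 0.24, adjusted p = 2.0e-09), a 4.11-fold difference. Without tumor 9 the difference was 2.19 (adjusted p = 2.4e-12).

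Within animals, Ppargc1a was higher in the tumor in 16 of 18 pairs. The differences ran from -1.69 to 3.91 with a median of 2.64. The 2 exceptions were the animals of tumor 9, with 6.76 in the tumor against 8.44 in its normal liver, and of tumor 20, with 7.88 in the tumor against 8.90 in its normal liver.

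Ppargc1b encodes the related coactivator PGC-1β, which is known in liver for its part in lipid synthesis and mitochondrial genes. It read 6.94, 8.19 and 8.96 in tumors (lowest, median, highest), against 7.01, 8.14 and 8.92 in normal livers. The groups overlapped almost completely. The fitted difference was 0.06 (95% interval -0.19 to 0.30, adjusted p = 0.765), so a shift of the size seen for Ppargc1a lies outside the interval.

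**Figure D1:**
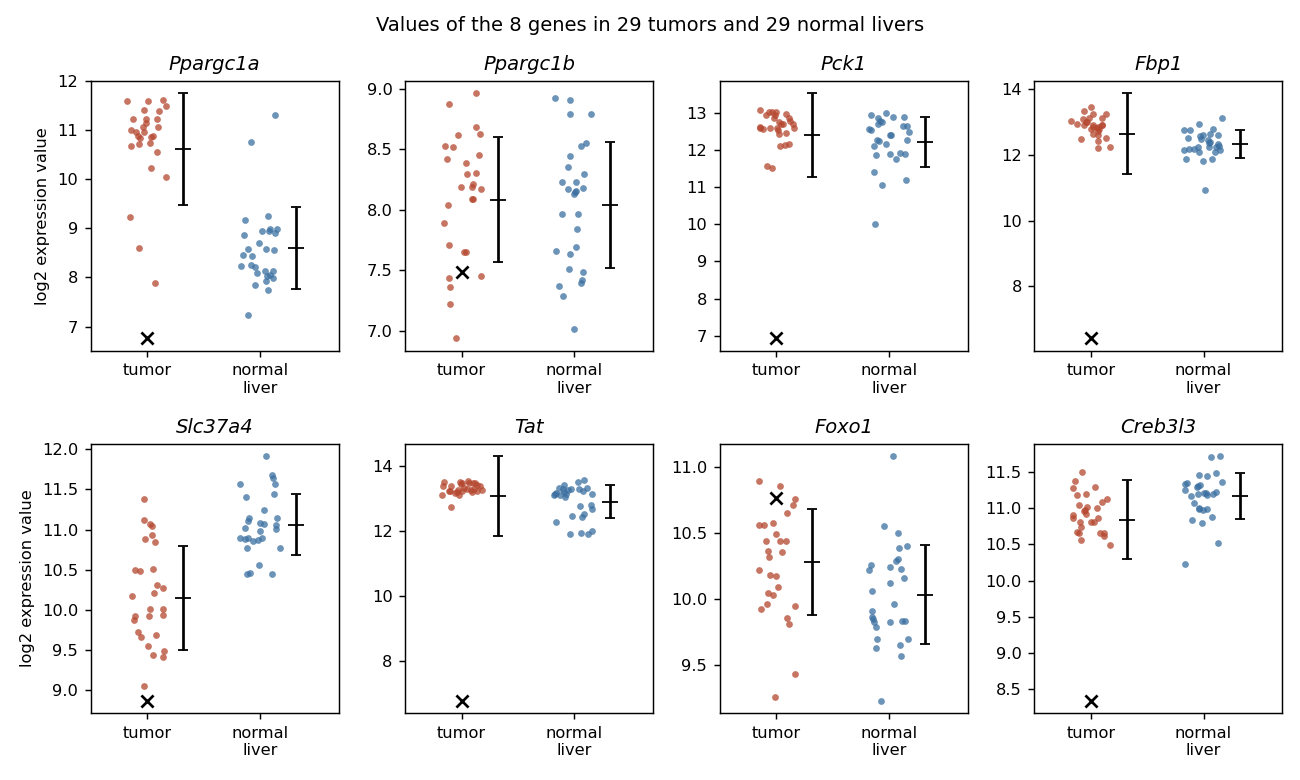
Log2 expression values (vertical axis, a separate scale for each gene) of the 8 genes in 29 tumors (left, red) and 29 normal livers (right, blue); each point is 1 array, the cross is tumor 9, and bars give the mean and SD over all arrays of the group. Most tumors lie above the normal livers for Ppargc1a and below them for Slc37a4, and tumor 9 is far below the other tumors for Pck1, Fbp1, Tat and Creb3l3.

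Over the 8 genes, 2 were called higher and 2 lower in tumors at an adjusted p under 0.05 with all arrays, where 32.1% of all genes tested were called in either direction. Without tumor 9, 5 were called higher and 2 lower, where 33.7% of all genes were called. The higher ones were Ppargc1a and Foxo1 with all arrays, joined by Pck1, Fbp1 and Tat without tumor 9. Slc37a4 and Creb3l3 were the lower ones in both fits. With normal liver 27 left out as well, 7 were called, where 34.3% of all genes were, and with the animal as a fixed block in 18 pairs 3 were called, where 20.8% of all genes were.

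The 3 enzyme genes among the members differed little beside Ppargc1a. Pck1 encodes cytosolic phosphoenolpyruvate carboxykinase, which carries oxaloacetate into the gluconeogenic pathway. It read 6.93, 12.61 and 13.08 in tumors (lowest, median, highest), against 9.996, 12.39 and 13.003 in normal livers. Tumor 9 gave the lowest value, and the other tumors lay between 11.52 and 13.08, within the range of the normal livers at all but the top. Pck1 was 0.19 higher in tumors with all arrays (SE 0.23, adjusted p = 0.560) and 0.40 higher without tumor 9 (adjusted p = 0.0167). It was higher in the tumor in 16 of 18 pairs.

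Fbp1 encodes fructose-1,6-bisphosphatase, which catalyses a later irreversible step of the pathway. It read 6.41, 12.91 and 13.45 in tumors, against 10.92, 12.35 and 13.13 in normal livers. Apart from tumor 9, no tumor was under 12.20, and 26 of 29 tumors were above the normal median. The difference was 0.30 with all arrays (SE 0.23, adjusted p = 0.335) and 0.54 without tumor 9 (adjusted p = 5.3e-06), with 14 of 18 pairs higher in the tumor.

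Tat encodes tyrosine aminotransferase, an enzyme of tyrosine breakdown that glucocorticoids and glucagon induce. It read 6.78, 13.27 and 13.53 in tumors, against 11.91, 13.12 and 13.57 in normal livers. Without tumor 9 the tumors spread less than the normal livers, with an SD of 0.17 against 0.51. The difference was 0.17 with all arrays (SE 0.23, adjusted p = 0.593) and 0.41 without tumor 9 (adjusted p = 4.3e-04), and 15 of 18 pairs were higher in the tumor.

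With the animal as a fixed block and without the pair of tumor 9, in 17 pairs, these 3 genes were higher in tumors by 0.61 for Pck1 (adjusted p = 0.00841), 0.62 for Fbp1 (adjusted p = 0.00285) and 0.49 for Tat (adjusted p = 0.00536). That fit was added after the data had been seen. Where Ppargc1a differed by 2.19 without tumor 9, the 3 differed by 0.40 to 0.54. By mean value Pck1, Fbp1 and Tat stood at percentiles 99.7, 99.7 and 99.9 of all genes, and Ppargc1a at 88.8. The highest value on any array was 14.08. Whether readings near the top of the scale limited the differences of the 3 enzymes was not tested.

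Slc37a4 encodes the transporter that brings glucose-6-phosphate into the endoplasmic reticulum, where glucose-6-phosphatase releases glucose from it. It was lower in tumors. It read 8.86, 10.004 and 11.38 in tumors (lowest, median, highest), against 10.44, 11.02 and 11.92 in normal livers. There were 19 tumors below the lowest normal liver and none above the highest. The fitted difference was -0.92 (SE 0.13, adjusted p = 9.8e-08), a level 0.529 times that of normal liver, and without tumor 9 it was -0.87 (adjusted p = 8.4e-08). It was lower in the tumor in 17 of 18 pairs.

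The catalytic partner of this transporter, G6pc, was no member but belongs beside it. It read 5.82, 12.49 and 13.03 in tumors, against 8.89, 11.73 and 12.77 in normal livers. Tumor 9 and 1 other tumor, at 8.03, were below all normal livers, while 9 tumors were above them all. G6pc was 0.51 higher in tumors with all arrays (SE 0.31, adjusted p = 0.215) and 0.76 higher without tumor 9 (adjusted p = 0.00866), the direction opposite to that of Slc37a4.

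Foxo1 and Creb3l3 encode transcription factors of the fasting response. Foxo1, through which insulin acts on gluconeogenic genes, read 9.26, 10.36 and 10.89 in tumors, against 9.23, 9.97 and 11.08 in normal livers. The groups overlapped throughout. The difference was 0.25 (SE 0.10, adjusted p = 0.0371), with 15 of 18 pairs higher in the tumor. The call rested on the choice of cluster: with the mean of both Foxo1 clusters the difference was 0.04 (adjusted p = 0.625), and over animals that gave a single tissue it was 0.07 (adjusted p = 0.876).

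Creb3l3 encodes CREBH, a liver factor held in the endoplasmic reticulum membrane that acts in fasting and in the acute phase response. It read 8.33, 10.90 and 11.50 in tumors, against 10.23, 11.21 and 11.73 in normal livers, and 25 of 29 tumors lay under the normal median. The difference was -0.32 (SE 0.11, adjusted p = 0.0222), but just 11 of 18 pairs were lower in the tumor. Fitted over the 18 pairs, the animal being a fixed block, it was -0.29 (adjusted p = 0.240), and with each array centred on its median it was -0.27 (adjusted p = 0.0822).

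**Figure D2:**
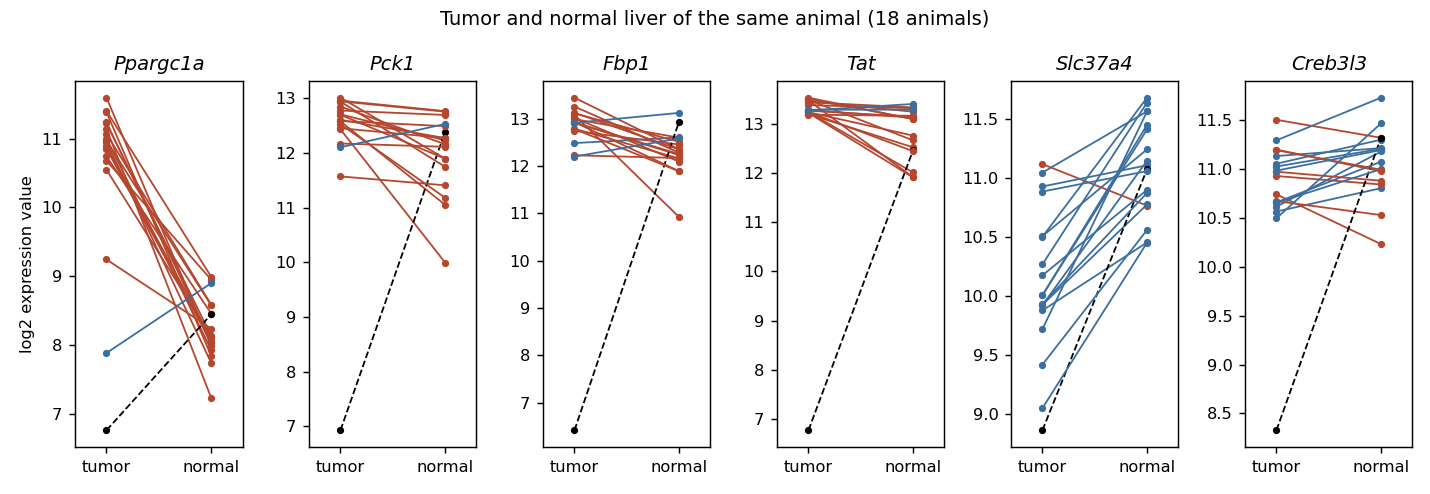
Log2 expression values of 6 genes in the tumor (left) and the normal liver (right) of 18 animals; each line is 1 animal, red where the tumor is higher, blue where it is lower, and the dashed black line is the animal of tumor 9. Ppargc1a is higher in the tumor in 16 of 18 animals, Slc37a4 is lower in 17, and Creb3l3 moves in both directions.

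The promoters of 4 members are shown because these genes include the 1 that differed most, 2 enzymes that lay higher without tumor 9 and the transporter that lay lower, and because CREB is the factor that links glucagon to Ppargc1a. CREB binds the cyclic AMP response element, TGACGTCA, and also its shorter core, TGACG. Each sequence runs 5′ to 3′ on the strand of the gene, from 250 bases before the start that RefSeq lists first to 50 bases after it, in build GRCm38.p6, and capitals mark the core, read as TGACG or on the other strand as CGTCA.
Ppargc1a, chr5:51567676-51567975, minus strand: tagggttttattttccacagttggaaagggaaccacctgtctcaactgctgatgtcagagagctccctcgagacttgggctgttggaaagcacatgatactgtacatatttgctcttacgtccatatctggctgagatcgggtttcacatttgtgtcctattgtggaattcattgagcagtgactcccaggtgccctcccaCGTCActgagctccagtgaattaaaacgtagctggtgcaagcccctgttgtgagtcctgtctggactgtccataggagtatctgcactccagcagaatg
Pck1, chr2:173152823-173153122, plus strand: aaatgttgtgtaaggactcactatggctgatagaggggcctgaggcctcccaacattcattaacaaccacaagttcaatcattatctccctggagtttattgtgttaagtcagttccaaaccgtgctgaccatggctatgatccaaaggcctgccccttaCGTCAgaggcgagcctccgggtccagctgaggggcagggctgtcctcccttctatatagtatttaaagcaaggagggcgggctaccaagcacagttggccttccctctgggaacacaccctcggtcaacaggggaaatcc
Slc37a4, chr9:44396696-44396995, plus strand: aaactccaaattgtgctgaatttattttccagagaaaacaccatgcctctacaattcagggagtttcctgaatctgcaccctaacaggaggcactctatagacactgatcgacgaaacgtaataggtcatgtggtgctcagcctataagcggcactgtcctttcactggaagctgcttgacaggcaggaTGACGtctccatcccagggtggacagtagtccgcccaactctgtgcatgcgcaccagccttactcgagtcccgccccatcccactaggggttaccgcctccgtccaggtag
Fbp1, chr13:62888233-62888532, minus strand: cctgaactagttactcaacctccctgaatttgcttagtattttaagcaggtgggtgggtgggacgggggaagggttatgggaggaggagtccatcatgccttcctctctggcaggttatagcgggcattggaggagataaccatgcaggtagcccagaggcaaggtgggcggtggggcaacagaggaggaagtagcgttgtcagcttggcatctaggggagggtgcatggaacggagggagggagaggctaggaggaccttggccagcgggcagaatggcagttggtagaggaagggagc

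The core begins 49 bases before the listed start in Ppargc1a, 90 bases before it in Pck1 and 61 bases before it in Slc37a4. These letters are not in the window of Fbp1, nor in those of Tat, Foxo1 and G6pc, which are not shown. Ppargc1b was left out of the search. Of the 7 members with a promoter searched, 4 held the core at the first listed start, the other being Creb3l3, and none held the full element. Among 27025 mouse promoters of the same length, 21% held the core and 1.88% the full element. Of the members called with all arrays, Ppargc1a, Slc37a4 and Creb3l3 held the core and Foxo1 did not.

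Whether the enzyme genes followed Ppargc1a from tumor to tumor was asked over 28 animals with a tumor, the 2 tumors of 1 animal being averaged. Most tumors were alike in Ppargc1a: 25 of the 29 read 10.05 to 11.63, and tumors 9, 20, 24 and 1 read 6.76, 7.88, 8.60 and 9.24. Those 4 were spread over more of the scale than the other 25 together, so a correlation over all tumors depends on them.

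Across the 28 animals, Fbp1, Pck1 and Tat rose with Ppargc1a. Pearson's r was 0.74 for Fbp1 (two-sided permutation p = 9.0e-05, Spearman's rho 0.53 with p = 0.00405), 0.73 for Pck1 (p = 9.9e-04, rho 0.48 with p = 0.0117) and 0.70 for Tat (p = 5.5e-04, rho 0.50 with p = 0.00834). In the fit of every gene on Ppargc1a these 3 of the 7 other members passed, with adjusted p-values of 1.1e-04 for Fbp1, 1.7e-04 for Pck1 and 4.1e-04 for Tat, where 16.2% of all genes passed. Tumor 9, the lowest for Ppargc1a and for all 3 enzymes, made up much of this relation.

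Without tumor 9, in 27 animals, r was 0.58 for Fbp1 (permutation p = 0.00146), 0.50 for Tat (p = 0.0155) and 0.44 for Pck1 (p = 0.0234). Only Fbp1 among the 7 still passed the fit across all genes (adjusted p = 0.0248), where 11.6% of all genes passed. The slopes shrank with it: a tumor with 1 more log2 unit of Ppargc1a had 0.82 more of Fbp1 with all tumors and 0.21 more without tumor 9, and the same slopes were 0.76 and 0.10 for Tat and 0.73 and 0.20 for Pck1.

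Without the 2 tumors farthest from the median, tumors 9 and 20, r was 0.63 for Tat, 0.44 for Fbp1 and 0.39 for Pck1 in 26 animals. None of the 7 passed, where 1.18% of all genes passed; the smallest adjusted p was 0.0889, for Tat. In the 24 animals whose tumor lay within 1 log2 unit of the median, a set added after the data had been seen, r was 0.58 for Pck1, 0.35 for Tat and 0.33 for Fbp1, and 0% of all genes passed. In that set the slope of Pck1 was 0.59, against 0.73 with all tumors, and those of Fbp1 and Tat were 0.24 and 0.12. With so few calls over all genes, the missing calls of these sets do not show that the members stopped following Ppargc1a.

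In the tumors labelled male, which include tumor 9, 4 of the 7 passed, where 17% of all genes did, with r of 0.96 for Pck1, 0.96 for Tat, 0.95 for Fbp1 and 0.88 for Creb3l3. Spearman's rho in these tumors was lower, at 0.65 for Pck1, 0.65 for Tat, 0.53 for Fbp1 and -0.04 for Creb3l3. No fit of this set without tumor 9 was run. In the 11 tumors labelled female none passed, where 0.509% of all genes did. The difference between the sexes in these relations was not tested. With the hepatocyte marker mean as a covariate the same 3 enzymes passed as with all tumors, with adjusted p-values of 1.4e-05 for Fbp1, 8.8e-04 for Pck1 and 0.00402 for Tat, where 10.6% of all genes passed. Tumor 9 was in that fit, with a marker mean of 7.89 against 11.76 to 12.74 in the other tumors. The covariate was not fitted without tumor 9. With each array centred on its median 4 passed, the fourth being Creb3l3 (adjusted p = 0.0461), where 18% of all genes did.

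The relation of Creb3l3 to Ppargc1a changed sign with tumor 9, and that of Slc37a4 passed in none of the sets of tumors. For Creb3l3, r was 0.42 over the 28 animals (permutation p = 0.0569) but rho was -0.35 (p = 0.0731), and without tumor 9 r was -0.48 (p = 0.00944, adjusted p = 0.0812 in the fit across all genes). Slc37a4 had an r of 0.06 with all tumors (p = 0.766) and of -0.29 without tumor 9 (p = 0.150). For Foxo1, r was 0.21 with all tumors (p = 0.292) and 0.50 without tumor 9 (p = 0.00880, adjusted p = 0.0561). Ppargc1b had an r of 0.37 with all tumors (p = 0.0533), 0.30 without tumor 9 (p = 0.125) and 0.01 without tumors 9 and 20 (p = 0.951).

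**Figure D3:**
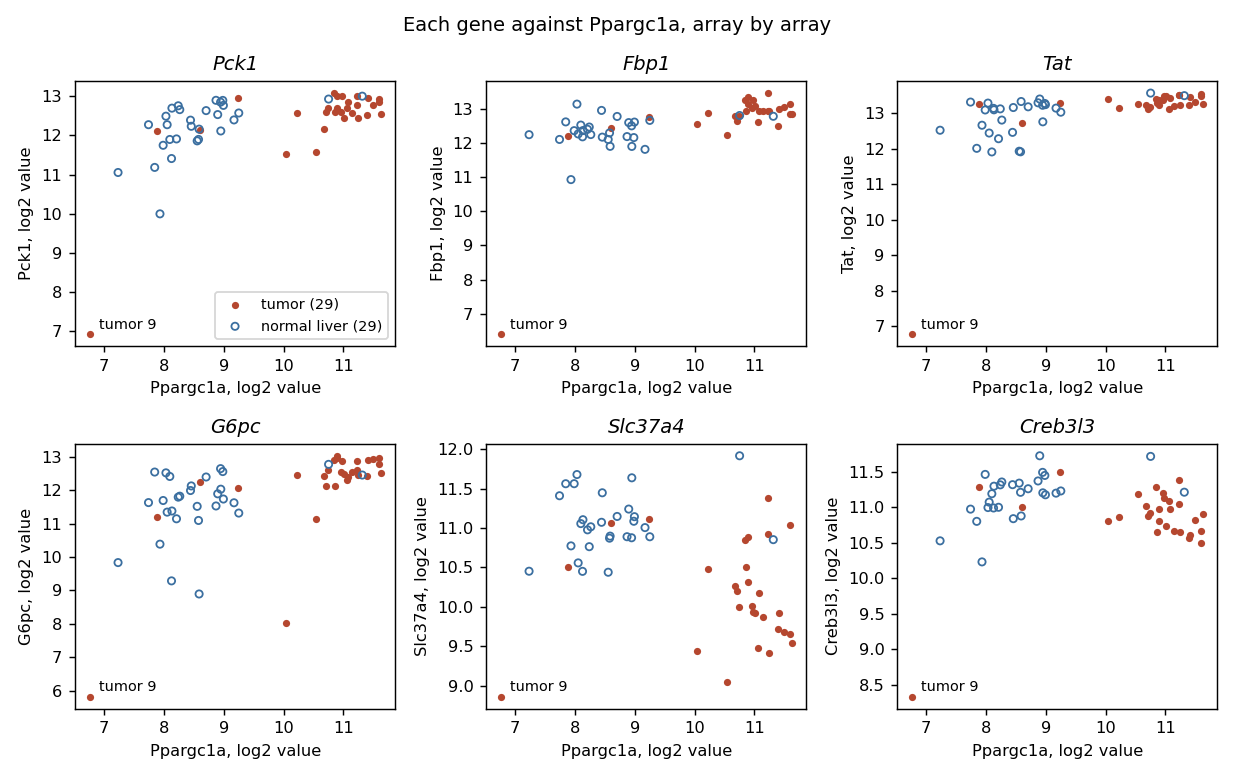
Log2 values of 6 genes (vertical axes) against the log2 value of Ppargc1a (horizontal axes) in 29 tumors (filled, red) and 29 normal livers (open, blue); each point is 1 array. Most tumors form a group between 10.05 and 11.63 of Ppargc1a, and tumor 9 lies at the lower left of each panel.

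The 3 other tumors with low Ppargc1a differed from tumor 9 in the enzymes. Tumors 1, 20 and 24 had 12.95, 12.11 and 12.14 of Pck1, 12.75, 12.20 and 12.44 of Fbp1, and 13.27, 13.27 and 12.73 of Tat. All 9 of these values are within the range of the normal livers. Their Slc37a4 was 11.12, 10.50 and 11.07, against a tumor median of 10.004. Afp, the alpha-fetoprotein gene of fetal liver and liver cancer, read 7.04, 7.41 and 6.91 in them, against a median of 8.91 in the tumors other than tumor 9 and 7.10 in normal livers. Markers of other cells moved with low Ppargc1a too: the Kupffer cell list averaged 9.79, 9.87 and 10.43 in tumors 1, 20 and 24, against a median of 8.43 in tumors other than tumor 9 and 9.70 in normal livers, and the neutrophil list averaged 10.55 in tumor 20, against medians of 6.20 in tumors other than tumor 9 and 6.30 in normal livers. Over the 28 animals, 3 of 8 Kupffer cell markers and 1 of 5 neutrophil markers fell along Ppargc1a at an adjusted p under 0.05, where 7.39% of all genes did. Without tumor 9 it was 4 of 8 and 4 of 5, where 4.84% of all genes did. Without tumors 9 and 20 it was 3 of 8 and 0 of 5, where 1.18% of all genes were called in either direction. For lymphocytes, 5 of 8 T and NK cell markers and 4 of 4 B cell markers fell along it with all tumors, and none without tumor 9. The part of these cells in the result was not tested.

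In normal livers Foxo1 and Ppargc1b had the highest r with Ppargc1a among the members. Over the 29 normal livers r was 0.69 for Foxo1 (permutation p = 3.0e-05), 0.65 for Ppargc1b (p = 5.0e-05), 0.57 for Pck1 (p = 0.00384), 0.51 for Creb3l3 (p = 0.00790), 0.46 for Tat (p = 0.0121), 0.27 for Fbp1 (p = 0.145) and 0.19 for Slc37a4 (p = 0.317). Foxo1 (adjusted p = 0.0119) and Ppargc1b (adjusted p = 0.0167) passed the fit across all genes, where 1.01% of all genes passed. Without normal livers 26 and 27, the 2 highest for Ppargc1a, r was 0.54 for Foxo1, 0.57 for Ppargc1b, 0.59 for Pck1 and 0.58 for Creb3l3. None of the 7 then passed, where 0.0586% of all genes passed. Normal liver 27 also had the highest Afp of its group, 10.09, against at most 8.51 in the other normal livers. The difference between tumors and normal livers in these correlations was not tested.

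**Figure D4:**
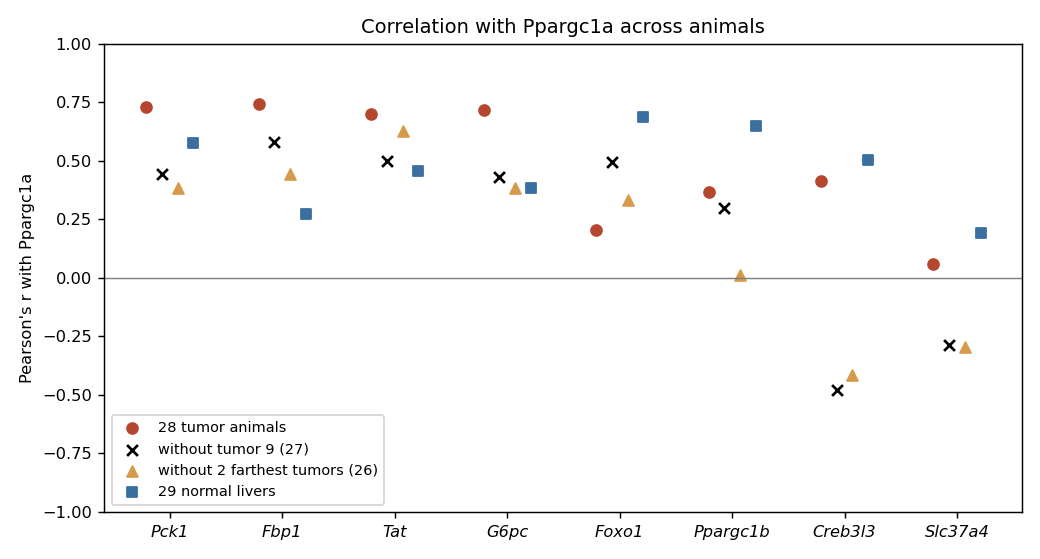
Pearson's r with Ppargc1a (vertical axis) for 7 members and G6pc over 28 tumor animals (circles), 27 without tumor 9 (crosses), 26 without tumors 9 and 20 (triangles) and 29 normal livers (squares). The r of Fbp1, Pck1 and Tat falls when tumor 9 is left out, and that of Creb3l3 changes sign.

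The same question within animals used the tumor minus normal difference of each gene in 18 pairs; both differences of a pair come from the same 2 arrays. The difference of Ppargc1a went with that of Pck1 (r = 0.78, permutation p = 1.2e-04), Tat (r = 0.73, p = 0.00176), Fbp1 (r = 0.72, p = 0.00278), Ppargc1b (r = 0.65, p = 0.00555) and Creb3l3 (r = 0.60, p = 0.0310). Spearman's rho was 0.60 for Pck1 (permutation p = 0.00966), 0.44 for Tat (p = 0.0688) and 0.38 for Fbp1 (p = 0.118). For Ppargc1b rho was 0.28 (p = 0.263), and for Creb3l3 it was 0.13 (p = 0.606). These 5 of 7 passed the fit across all genes, where 11.1% of all genes passed. Slc37a4 and Foxo1 had an r of 0.20 each and did not pass. Without the animal of tumor 9, in 17 pairs, r was 0.57 for Pck1 (p = 0.0240), 0.41 for Tat (p = 0.0974), 0.40 for Fbp1 (p = 0.115), 0.42 for Ppargc1b (p = 0.0948) and 0.03 for Creb3l3 (p = 0.904). None of the 7 passed then, and 0% of all genes did. Without the animals of tumors 9 and 20, r was 0.49 for Pck1, 0.28 for Tat and 0.11 for Fbp1, and 0% of all genes passed. With the difference of the hepatocyte marker mean as a covariate none of the 7 passed, where 0.180% of all genes did.

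The genes most like Ppargc1a over the 28 tumor animals were Fh1, Etnppl, Plk3, Acmsd and Pde10a, with r of 0.96, 0.93, 0.91, 0.91 and 0.91. Fh1 encodes fumarate hydratase of the citric acid cycle, and Acmsd an enzyme of tryptophan breakdown. Without tumors 9 and 20, r was 0.91 for Pde10a, 0.88 for Fh1, 0.81 for Acmsd, and 0.78 for both Plk3 and Etnppl. The 5 genes were chosen for their r over these same tumors, so a high r here was largely set by the choice. In normal livers, which did not enter the choice, r with Ppargc1a was 0.72 for Fh1, 0.70 for Etnppl, 0.63 for Acmsd, 0.57 for Pde10a and 0.48 for Plk3. All 5 were higher in tumors, by 2.55 for Etnppl (adjusted p = 7.1e-09), 2.40 for Pde10a (adjusted p = 1.6e-13), 2.25 for Acmsd (adjusted p = 8.9e-10), 1.19 for Fh1 (adjusted p = 7.0e-10) and 0.88 for Plk3 (adjusted p = 2.5e-04). At the other end stood Hhip, Ncf1, Tmc8, Eml6 and Gm2848, with r of -0.84, -0.83, -0.82, -0.82 and -0.82.

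Among the other enzymes and transporters of gluconeogenesis, 19 of 23 listed genes were measured, of which 10 were higher and 3 lower in tumors and 6 did not pass. Over all genes 17.9% were called higher and 14.3% lower. The list's median difference was 0.28, against -0.02 over all genes. Its leading genes were Got1 and Mdh2, the aminotransferase and dehydrogenase that shuttle malate and aspartate. Got1 averaged 12.81 ± 0.88 in tumors and 10.996 ± 0.99 in normal livers, a difference of 1.81 (SE 0.23, adjusted p = 8.1e-09). Mdh2 averaged 12.52 ± 0.52 in tumors and 11.64 ± 0.36 in normal livers, a difference of 0.88 (SE 0.11, adjusted p = 9.7e-09).

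The 3 lower genes were Slc2a2, Aqp9 and Pcx. Slc2a2, the glucose transporter GLUT2 through which glucose leaves the hepatocyte, averaged 9.95 ± 1.37 in tumors and 11.72 ± 0.81 in normal livers, a difference of -1.78 (SE 0.27, adjusted p = 4.8e-07), and was lower in 17 of 18 pairs. Aqp9, the channel that takes up glycerol, differed by -0.62 (adjusted p = 1.5e-04). Pcx, the pyruvate carboxylase that starts the pathway from pyruvate, differed by -0.46 (adjusted p = 0.0204), but missed the threshold when fitted over the 18 pairs (adjusted p = 0.159). Without tumor 9, G6pc and Gpt2 joined the higher genes, for 12 higher and 3 lower.

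**Figure D5:**
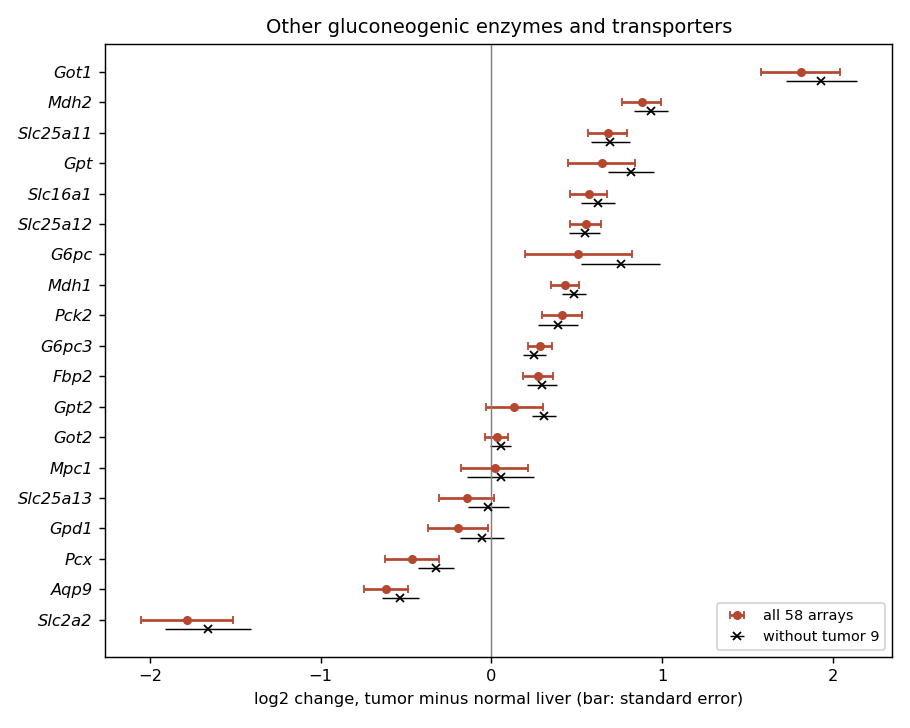
Log2 difference, tumor minus normal liver (horizontal axis), of 19 other gluconeogenic enzymes and transporters, with standard errors, over all 58 arrays (circles) and without tumor 9 (crosses). Got1 stands highest at 1.81 and Slc2a2 lowest at -1.78.

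Of 24 regulators of hepatic glucose output, 7 were higher and 4 lower, where 17.9% of all genes were called higher and 14.3% lower. Over the 18 pairs 7 were higher and 1, Sirt1, lower, where 12.6% and 8.13% of all genes were called. Sik1, a kinase that cyclic AMP induces and that restrains CREB coactivators, was 1.66 higher (SE 0.18, adjusted p = 1.8e-10) and rose in 17 of 18 pairs. Nr4a1, an orphan nuclear receptor that cyclic AMP induces, was 0.87 higher (SE 0.12, adjusted p = 1.3e-07), and its relatives Nr4a2 and Nr4a3 were among the 7. Esrra, which encodes the PGC-1 partner ERRα, was 0.31 higher (SE 0.06, adjusted p = 1.0e-04; 0.37 over the 18 pairs, adjusted p = 0.00326), and Foxo1, a member, 0.25 higher (adjusted p = 0.0371). Of other genes that work with PGC-1α or CREB, Hnf4a differed by -0.33 (adjusted p = 0.0464, and 0.115 when fitted over the 18 pairs), Nr3c1, the glucocorticoid receptor gene, by -0.07 (adjusted p = 0.422) and Crtc2, a CREB coactivator, by 0.14 (adjusted p = 0.109). Without tumor 9, 7 were higher and 2 lower, Lpin1 and Cebpa no longer passing, where 33.7% of all genes were called in either direction.

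Of 15 genes of glucagon and insulin signalling, 5 were higher and 2 lower, beside the 17.9% and 14.3% of all genes. Over the 18 pairs it was 3 higher and 1 lower, Prkacb, Prkar1a and Adcy6 no longer passing, where 12.6% and 8.13% of all genes were called. Irs2, the insulin receptor substrate that CREB and FOXO1 induce in fasting, was 0.73 higher (SE 0.14, adjusted p = 3.9e-05), and Pik3ca, a catalytic subunit of phosphoinositide 3-kinase, was 0.40 higher (SE 0.07, adjusted p = 5.1e-06). Gcgr, the glucagon receptor, was lower by 0.56 (difference -0.56, SE 0.13, adjusted p = 5.3e-04).

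Of 15 other fasting response genes measured, 1 was higher, 7 were lower and 7 did not pass, with a median difference of -0.43 against -0.02 over all genes, of which 17.9% were called higher and 14.3% lower. Over the 18 pairs 1 was higher and 5 were lower, where 12.6% of all genes were called higher and 8.13% lower: Acot1, Txnip and Ppp1r3c no longer passed, and Pdk4 did. Whether fasting raises or lowers each gene of this list was not examined, so these counts do not give the direction of a fasting response. Ppp1r3b, a glycogen-targeting subunit of protein phosphatase 1, differed by -1.22 (SE 0.19, adjusted p = 1.1e-06), and Cyp4a14, a target of PPARα, by -1.75 (SE 0.37, adjusted p = 1.3e-04). Cidec, a lipid droplet protein gene, was the 1 higher gene, by 1.10 (adjusted p = 6.1e-04). Igfbp1, which FOXO1 and cyclic AMP induce, differed by 0.73 (adjusted p = 0.0666; 0.91 without tumor 9, adjusted p = 0.00725), and Pdk4, a kinase that spares pyruvate in fasting, by -0.54 (adjusted p = 0.0538). Of 8 Creb3l3 targets, 1 was higher and 4 were lower, led by Crp, an acute phase protein gene, with -1.38 (SE 0.24, adjusted p = 8.2e-06) and Apoa5, an apolipoprotein gene, with -1.29 (SE 0.23, adjusted p = 1.3e-05). The higher target, Cidec, and Fgf21 among the lower ones were also counted in the fasting list.

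Of 12 measured genes that break down amino acids, 4 were higher and none lower with all arrays, where 17.9% of all genes were called higher. Got1 and Gpt, among the higher ones, were also counted with the gluconeogenic genes. Without tumor 9, 11 were higher, where 18.6% of all genes were called higher. Agxt, which handles glyoxylate and alanine, was 1.60 higher (SE 0.31, adjusted p = 3.6e-05). Across tumors, all 12 rose with Ppargc1a (8.82% of all genes passed in this direction), 7 still passed without tumor 9 (6.78% of all genes), and 2 without tumors 9 and 20 (0.636% of all genes). For Got1, r was 0.90 with all tumors and 0.81 without tumor 9 (adjusted p = 6.8e-05), and for Agxt it was 0.82 and 0.70 (adjusted p = 0.00188).

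Of 17 mitochondrial and heme genes that PGC-1 proteins coactivate, 7 were higher and none lower. Esrra, among the higher ones, was also counted with the regulators, and Pdk4 is also in the fasting list. Of all genes 17.9% were called higher and 14.3% lower. Over the 18 pairs 4 were higher and 1, Pdk4, lower, where 12.6% and 8.13% of all genes were called. Idh3a, a subunit of isocitrate dehydrogenase, was 1.29 higher (SE 0.17, adjusted p = 1.9e-08) and Ndufs1, a subunit of respiratory complex I, 0.50 higher (SE 0.10, adjusted p = 8.1e-05). Alas1, the first enzyme of heme synthesis, differed by 0.22 (adjusted p = 0.213; 0.33 without tumor 9, adjusted p = 0.00667). Across tumors 13 of the 17 rose with Ppargc1a (8.82% of all genes), 4 without tumor 9 (6.78%) and 0 without tumors 9 and 20 (0.636%).

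Of 10 measured genes of the fed state, 5 were lower and none higher, where 14.3% of all genes were called lower and 17.9% higher. Thrsp, a lipogenic gene that insulin and thyroid hormone induce, differed by -2.21 (SE 0.27, adjusted p = 4.3e-09), and Fasn, fatty acid synthase, by -0.92 (SE 0.17, adjusted p = 1.3e-05).

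Some markers of other liver cells differed between the tissues as well. With all arrays 17.9% of all genes were called higher and 14.3% lower, and the counts here stand beside those shares. Of 8 Kupffer cell markers 5 were lower and none higher, led by Clec4f with -2.06 and Vsig4 with -2.37. The list's mean ran from 7.41 to 10.43 in the tumors other than tumor 9, against 8.41 to 10.90 in normal livers. Of 7 sinusoidal endothelial markers 5 were lower, led by Clec4g with -2.03 and Stab2 with -1.01, and the mean ran from 8.11 to 10.25 in those tumors, against 9.05 to 10.27 in normal livers. Of 7 hepatocyte markers 2 were lower with all arrays and 6 without tumor 9, though Alb differed by just -0.13 there. Without tumor 9, 33.7% of all genes were called in either direction. Stellate cell markers had 2 higher and 3 lower of 8, cholangiocyte markers 4 lower of 6, T and NK cell markers 1 higher of 8, muscle and fat markers 1 lower of 6, and the 4 B cell and 5 neutrophil markers had no call. Over the 18 pairs 3 of the 5 neutrophil markers were lower (S100a9, Retnlg and Elane), and of the cholangiocyte markers 1 was, Pkhd1. In that fit 8.13% of all genes were called lower. The part of these cells in the members' differences was not tested.

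No member's tumor difference was shown to differ between the sexes. The difference of Ppargc1a was 1.88 in females (adjusted p = 0.00804) and 2.19 in males (adjusted p = 2.0e-07), and the female minus male difference of these was -0.30 (SE 0.52, adjusted p = 0.971). None of the 8 passed the interaction test, and 0% of all genes did; at an unadjusted p under 0.05 the members had none either. Of the 57 arrays with a gender label, 7 went against it by Xist and the Y-linked genes.

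Among the 9 normal male livers with a mark in the title, 4 with -/- and 5 with +/-, no member passed, and 0% of all genes did. Ppargc1a read 8.10, 8.87, 8.21 and 11.31 in the -/- livers, against 8.46, 7.23, 7.99, 8.03 and 10.75 in the +/- livers; 1 liver of each mark was high, and the groups overlapped. Ppargc1b, at 8.23, 8.92, 8.23 and 8.90 in -/- livers against 7.48, 7.51, 7.97, 7.37 and 8.79 in +/- livers, was the 1 member with an unadjusted p under 0.05 in the limma fit (difference 0.75, SE 0.29, p = 0.0260, adjusted p = 0.720).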

How the data were processed

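The authors deposited 1 log2 value per transcript cluster and array. Per the submitters' processing notes the tool was Affymetrix Expression Console; no label or header names its version, summarization method or genome build. Array medians lay between 6.72 and 7.15, and the number of arrays limits the precision. Of 41345 clusters, 23521 had 1 gene symbol, 1814 several and 16010 none in the platform annotation; the brightest cluster of each of 22180 genes was used.

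Every gene was fitted with limma 3.58.1 (statmod 1.5.0, R 4.3.3): lmFit, duplicateCorrelation with the animal as a random block (correlation 0.145), eBayes with trend, and Benjamini-Hochberg adjustment over all genes (threshold 0.05). Slopes on Ppargc1a used lmFit and eBayes without a block; "passed" refers to their adjusted p. Correlations of 7 members and G6pc with Ppargc1a were tested by 100000 two-sided permutations (scipy 1.17.1), whose smallest p is 1e-05; the p-values adjusted over all genes stand beside them. Animals and pairs come from the animal numbers in the titles, with 1 exception. Normal livers 26 and 27 share a number but were kept apart by their unlike marks. Tumors 22 and 26 share a number and were joined, though only tumor 22 carries a mark. Normal liver 17 and tumor 19 likewise share a number and form 1 of the 18 pairs, though only normal liver 17 carries a mark. Deviations of paired arrays from their group means correlated with a median of 0.241, above 0.1 in 15 of 18 pairs.

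The code was tested on simulated data. Lists comprised other gluconeogenic genes, regulators, glucagon and insulin signalling, fasting, Creb3l3, amino acid, PGC-1, fed state and cell type genes. Named from each were up to 2 of smallest adjusted p, that of largest difference and a few by symbol; Slc2a2, Aqp9, Gpt2, Nr4a2, Nr4a3, Lpin1, Cebpa, Cidec, tumors 1, 20 and 24 and Afp were named after their values were seen. The members and lists were chosen with earlier results of these data known. Promoters are RefSeq's.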

Additional observations from a re-analysis of the deposited data

How the results depend on the processing

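Ppargc1a stayed higher and Slc37a4 lower in tumors, past the threshold, under every alternative run for the tissue comparison, with differences of 1.49 to 2.53 and of -0.976 to -0.759. Where 4 members were called with all arrays, 7 were called without tumor 9, with array weights, and without both tumor 9 and normal liver 27 (the last chosen after seeing the data). With the animal as a fixed block in 18 pairs 3 members were called, and 3 without any replicate block; without that block Foxo1 no longer passed (0.246, adjusted p = 0.0597), nor did it with quantile normalization (adjusted p = 0.0622). In the 18 pairs, Hal (adjusted p = 0.0850) no longer passed and Pdk4 did (adjusted p = 0.0455). The difference of Ppargc1b turned to -0.218 over animals that gave 1 tissue, a fit in which the 2 tumors of 1 animal were averaged and no block was used.

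Along Ppargc1a across tumors, 3 members passed with all tumors, with quantile normalization, with the mean of all clusters of a gene and with the hepatocyte marker mean as a covariate, 4 in tumors labelled male and with median centring, 1 without tumor 9, and 0 without the 2 farthest tumors, in tumors labelled female, in the 24 animals near the median and in normal livers without 26 and 27 (the last 2 sets chosen after seeing the data). Across pairs, 5 passed, and 0 without tumor 9, without the 2 farthest animals and with the hepatocyte marker difference as a covariate. The r of Slc37a4 turned negative as Spearman's rho (-0.143), without tumor 9 (-0.285), without the 2 farthest tumors (-0.294), in females (-0.398) and with the hepatocyte marker mean as a covariate (-0.341). That of Creb3l3 did so in the same settings (-0.345, -0.480, -0.417, -0.508 and -0.240) and near the median (-0.300), and that of Foxo1 in males (-0.184). Across pairs, r turned to -0.187 (without tumor 9), -0.207 (without the 2 farthest) and -0.221 (with the covariate) for Slc37a4, and without the 2 farthest to -0.0618 for Ppargc1b and -0.236 for Creb3l3. The causes were not tested.

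With each array centred on its median, the sex difference of Fbp1 turned to -0.0174. Leaving out each marked liver in turn, the -/- minus +/- difference ran from -0.0997 to 1.20 for Ppargc1a, -0.172 to 0.0784 for Fbp1, -0.318 to 0.145 for Foxo1 and -0.0604 to 0.237 for Creb3l3, and no member passed. A fixed replicate block changed no other call of a member than that of Creb3l3. No measure of background was used, so dim readings are not marked as such.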
